A study of Oryza sativa with 60 samples.

Results

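Radicle (the embryonic root) and plumule (the embryonic shoot) of germinating rice, both labelled dark, were compared with each other. The 2 groups were taken by their labels as radicle dark and plumule dark, both from the cultivar Nipponbare, and the light-grown libraries stayed out of the comparison. They made up 10 of the 60 samples of the series, with 2 input and 3 bisulfite-treated libraries for each organ. Expression was given as TPM (transcript abundance scaled for transcript length and library depth) in 4 of 24 libraries, and the pseudouridine (Ψ) fraction was given in both organs at 8524 of 9126 sites. The methods of the study give 1 collection time after germination on plates for both organs. They describe a daily light and dark cycle for rice and no germination in the dark, so the dark treatment is known from the labels only. The labels give no number of seeds behind a library, and they do not say whether replicates came from separate cultures, so the p-values below measure only the spread between libraries, which may be technical.

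The radicle leaves the seed first, anchors it and takes up water and ions, while the plumule carries the shoot meristem and the first leaves. In the dark neither organ makes working chloroplasts, but shoot cells keep etioplasts, which hold the beginnings of the photosynthetic membrane, and root cells hold colourless plastids. Ψ is an isomer of uridine made after transcription by pseudouridine synthases. In BID-seq (bisulfite-induced deletion sequencing) bisulfite marks Ψ so that reverse transcriptase skips it, and the share of gapped reads is converted to the fraction of transcripts modified at that base.

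The radicle dark libraries held 3555348 and 4400367 read equivalents (reads recovered from the steps between low TPM values), and the plumule dark libraries held 6941233 and 6444952. The 2 plumule libraries differed by no more than sampling noise (chi-square per gene 1.01 over 9387 genes) and were counted as 1 sample, whereas the 2 radicle libraries differed slightly more (1.06 over 9665 genes) and were kept as 2 samples. With plumule as 1 sample, the spread in the test comes from the radicle pair and the other groups with 2 samples, and plumule is assumed to vary like them. Nuclear genes carry identifiers without names here, so root and shoot markers were not read and the organ labels were not checked by nuclear marker genes. In whole organs, fewer cells of a type and less RNA per cell cannot be told apart.

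Most expressed genes differed between the organs. Of 29789 genes tested with limma, 17387 passed an adjusted p of 0.05 (58.4% of those tested), 7087 higher in radicle (23.8%) and 10300 lower (34.6%). On simulated data more of the calls than the threshold allows were unchanged genes, so calls near the threshold are uncertain here and in the lists that follow. The simulation counted every plumule library as its own sample, unlike the test here, and assumed the spread between libraries. It therefore gives no error rate for these calls. The larger differences leaned the other way. Among the called genes, 1125 were at least 8-fold higher in radicle (3.78% of genes tested) and 746 were at least 8-fold lower (2.5%), and at 32-fold the counts were 230 and 161. In 79.7% of the genes tested the 2 radicle values did not overlap the 2 plumule values. The median difference over all genes was -0.15 on the log2(TPM + 1) scale. When each library was centred on its own median, 8628 genes were higher and 8101 lower, so the majority among all called genes depends on the scaling.

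The most abundant transcripts were largely different ones. In both radicle libraries 80 genes reached 1000 TPM, against 91 in both plumule libraries, and 28 genes did so in all 4. Of the 80 radicle genes 31 were called and at least 8-fold higher there, and of the 91 plumule genes 23 were called and at least 8-fold lower in radicle. Genes at 1000 TPM or more took 16.3% and 15.7% of all TPM in the radicle libraries, against 17.8% and 18.4% in the plumule libraries.

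The 2 largest rises and 2 largest falls are given by identifier, among 4234 called genes with a mean of at least 32 TPM and no overlap between the libraries. Os09g0409100 (chromosome 9, 14479033 to 14479842, minus strand, IRGSP-1.0) had 1529 and 1516 TPM in radicle and was listed at 0 in both plumule libraries. Its log2 difference of 10.57 ± 0.21 (SE, adjusted p = 5.15e-13), or 10.72 relative to the median gene, rests on the pseudocount of 1. Os12g0455000 (chromosome 12, 15788561 to 15789140, plus strand) had 1005.4 and 1005.1 TPM in radicle, against 0 and 0.33 TPM in plumule, a log2 difference of 9.77 ± 0.48 (adjusted p = 1.43e-09). Both genes were nearly silent elsewhere, with at most 0.642 and 2.08 TPM in any of the 8 other tissues of the series.

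The genes with the largest falls were also expressed outside the young organs. Os06g0705400 (chromosome 6, 29807821 to 29808449, plus strand) had 0.545 and 1.11 TPM in radicle, against 2621 and 2675 TPM in plumule, a log2 difference of -10.52 ± 0.70 (adjusted p = 2.54e-08). Os09g0538000 (chromosome 9, 21165219 to 21167647, minus strand) was listed at 0 in both radicle libraries, against 1380 and 1377 TPM in plumule, with a log2 difference of -10.43 ± 0.44 (adjusted p = 3.15e-10) that also rests on the pseudocount. Among the 8 other tissues they were highest in the 8-day seedling, at 230 and 1621 TPM, and their lowest levels were 0.70 and 0.60 TPM.

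Genes expressed in 1 of the organs only were then followed into the 8 other tissues. A gene counted as radicle-only when both radicle libraries had at least 10 TPM and both plumule libraries had less than 1 TPM, and as plumule-only in the reverse case. There were 468 radicle-only and 321 plumule-only genes, with medians of 22.6 TPM in radicle and 23.6 TPM in plumule. Of the radicle-only genes 119 (25.4%, 95% Wilson interval 21.7 to 29.6%) were under 1 TPM in all 8 other tissues, against 2 of the plumule-only genes (0.623%, interval 0.171 to 2.24%). Over all genes at 10 TPM in radicle that share was 1.43%, and over all at 10 TPM in plumule it was 0.0829%.

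**Figure D1:**
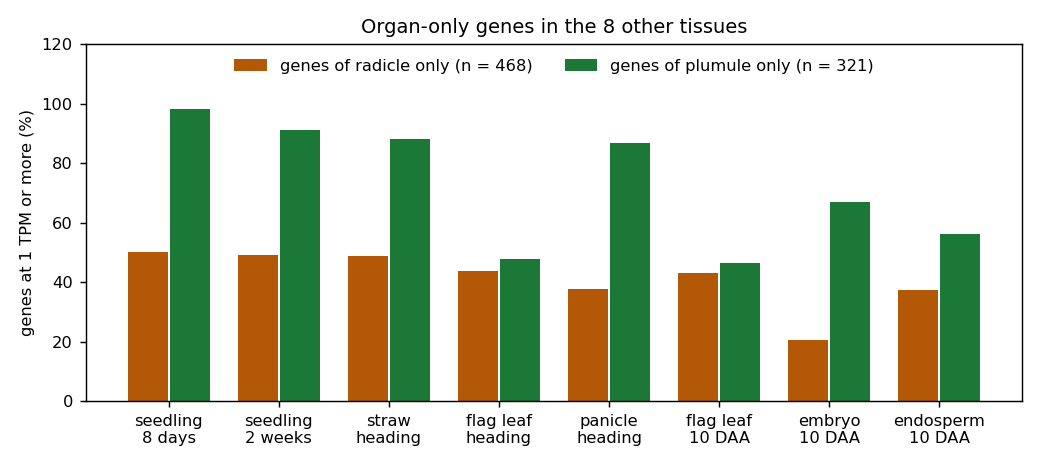
The percentage of radicle-only genes (n = 468) and plumule-only genes (n = 321) that reached 1 TPM or more in the mean of 2 libraries of each of the 8 other tissues; DAA is days after anthesis. The plumule-only bars reach 98.1% in the 8-day seedling, while the radicle-only bars stay between 20.5% and 50.0%.

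At 1 TPM or more, 98.1% of the plumule-only genes were found in the 8-day seedling, 91.3% in the 2-week seedling, 88.2% in straw and 86.9% in the panicle at heading, against 99.7%, 98.6%, 98.4% and 98.0% of all genes at 10 TPM in plumule. In the flag leaf 48.0% were found at heading and 46.4% at 10 days after anthesis (DAA), against 89.1% and 88.9% of all genes at 10 TPM in plumule. In the 8-day seedling 162 of the 321 had their highest level of the 8 tissues. The radicle-only genes reached 1 TPM in 50.0% of cases in the 8-day seedling, 43.8% in the flag leaf at heading and 20.5% in the embryo at 10 DAA, against 96.9%, 88.0% and 88.3% of all genes at 10 TPM in radicle. None of the 8 other tissues is labelled as root.

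Neighbouring genes moved together at some loci. Only tested genes with an Os identifier were ordered along the chromosomes. In 30 runs of at least 3 adjacent genes all were called and 8-fold or more higher in radicle, holding 107 of 1124 such genes. A further 11 runs were all 8-fold or more lower, holding 41 of 735. The longest run higher in radicle had 7 genes (chromosome 11, 25886463 to 25960537), at 7.71 to 320 TPM in radicle, against 0.0421 to 12.7 TPM in plumule. Another, of 6 genes (chromosome 10, 20434654 to 20552361), lay at 33.3 to 1163 TPM in radicle, against 0.149 to 16.7 TPM in plumule.

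Among the runs lower in radicle, 5 genes at the start of chromosome 12 (733276 to 762381) lay at 0.956 to 4.27 TPM in radicle, against 120 to 2820 TPM in plumule. A further 5 genes on chromosome 10 (2999345 to 3032661) lay at 0.27 to 1.57 TPM in radicle, against 198 to 432 TPM in plumule. The most abundant run had 5 genes of the same length on chromosome 6 (18524688 to 18727299), at 43.0 to 86.5 TPM in radicle, against 3286 to 4243 TPM in plumule and at most 69.3 TPM in any of the 8 other tissues. Near-identical copies can share reads, so the level of each of these genes is uncertain.

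Long transcripts were more often lower in radicle. With the genes tested split by length into 5 classes, in the class of the longest (2323 bases or more) 18.2% were called higher in radicle and 45.9% lower, and the median difference was -0.36 on the log2(TPM + 1) scale. In the class of the shortest (784 bases or less) the shares were 22.3% and 24.1%, with a median of -0.02. Across the 5 classes the share lower and the median moved in 1 direction with length, whereas the share higher was greatest in the next to shortest class. The classes were not matched for expression level, and the values are without median centring.

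Plastid genes, which the table names, were grouped by role. The plastid genome encodes part of the photosynthetic machinery together with part of the ribosomes and RNA polymerase that express it. Of 57 named plastid genes tested, 10 were higher (17.5%) and 11 lower (19.3%) in radicle, against 23.8% and 34.6% of all genes. Their median difference was -0.13 on the log2(TPM + 1) scale, against -0.15 over all genes. With only the 4 dark libraries 29 of these genes passed the filter, so many were too weak in both organs to be called. The 12 photosystem II genes had 8 lower (66.7%) and 0 higher in radicle, and the 25 genes for ribosomal proteins and the initiation factor infA had 9 higher (36%) and 3 lower (12%). Of 40 plastid identifiers without a name that were tested, 2 were higher and 17 lower (42.5%). Of the genes for photosystem I (3), the cytochrome b6f complex (4), ATP synthase (4) and the NADH dehydrogenase-like complex (5), none passed the test. None of these groups had more than 11.3 read equivalents in any of the 4 libraries, so the lack of calls shows no contrast between roles. Among these genes petB and petD are listed with lengths of 6 and 8 bases, so their TPM cannot be compared with other genes.

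All of these levels were low. The named plastid genes together had 129 and 175 read equivalents in the radicle libraries, against 246 and 241 in the plumule libraries. The 12 photosystem II genes together had 5.28 and 6.17 read equivalents in the radicle libraries, against 76.8 and 73.5 in the plumule libraries. The ribosomal group had 100.3 and 144.9 read equivalents in radicle, against 130.6 and 122.1 in plumule, although the plumule libraries were the deeper ones. Plastid messages are mostly not polyadenylated and the RNA was selected for poly(A) tails, so these values cover only the part of plastid RNA that was captured.

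**Figure D2:**
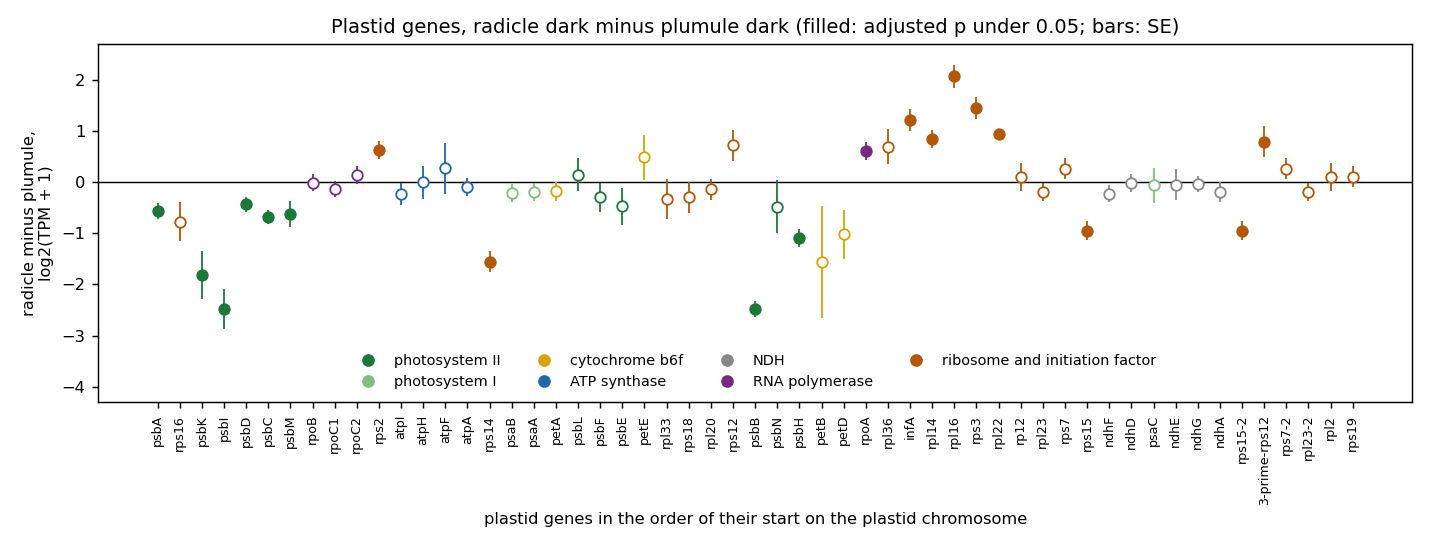
The difference of radicle dark minus plumule dark on the log2(TPM + 1) scale (y axis, bars SE) for 55 of the 57 named plastid genes tested, in the order of their start on the plastid chromosome and coloured by role; filled points passed an adjusted p of 0.05. Photosystem II genes lie at or below 0 apart from psbL, and the run from rpoA to rpl22 lies above 0.

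Among the photosystem II genes, psbB, which encodes an inner antenna protein, fell most clearly. It had 0.0942 and 0.188 TPM in radicle, against 5.42 and 5.35 TPM in plumule, a log2 difference of -2.49 ± 0.16 (SE, adjusted p = 1.56e-08). Its neighbour psbH, for a small subunit, was listed at 0 in both radicle libraries, against 1.06 and 1.21 TPM in plumule (-1.09 ± 0.17, adjusted p = 8.57e-05). The small-subunit genes psbI and psbK, next to each other on the plastid chromosome, had log2 differences of -2.49 ± 0.39 and -1.82 ± 0.46 (adjusted p = 0.000103 and 0.00407), and none of their radicle values exceeded 0.501 TPM.

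The reaction-centre genes changed less. psbA had 0.329 and 0.377 TPM in radicle, against 0.909 and 1.11 TPM in plumule (-0.57 ± 0.15, adjusted p = 0.00633), and psbD had 0.294 and 0.097 TPM, against 0.525 and 0.707 TPM (-0.44 ± 0.15, adjusted p = 0.0239), a call lost without radicle dark replicate 2 (adjusted p = 0.116) and without plumule dark replicate 2 (adjusted p = 0.0589). psbC, for the other inner antenna protein, had 0.108 and 0.0802 TPM in radicle, against 0.772 and 0.726 TPM in plumule (-0.68 ± 0.14, adjusted p = 0.000871). With a pseudocount of 5 the count of photosystem II genes lower in radicle was 4, and after median centring it was 5, with psbA, psbD and psbM among those lost under both.

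**Figure D3:**
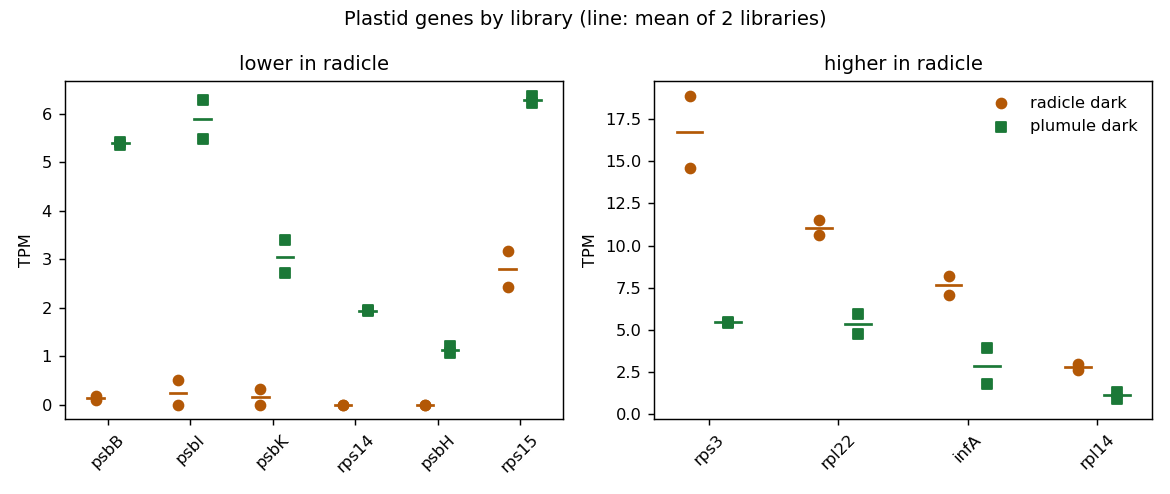
TPM of 10 plastid genes in each of the 2 radicle dark libraries (circles) and the 2 plumule dark libraries (squares), with lines at the means. On the left the radicle points lie at or below 3.16 TPM and below all plumule points of the same gene, and on the right they lie above all plumule points of the same gene.

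The genes higher in radicle were mostly neighbours. From rpoA to rpl22, 9 tested genes on the minus strand of the plastid chromosome (74330 to 80568) all had positive differences, from 0.61 to 2.07 on the log2 scale, and 8 of them passed the test, rpl36 being the exception (0.69 ± 0.34, adjusted p = 0.102). Apart from rpoA, for a subunit of the plastid RNA polymerase, and infA, for translation initiation factor, they encode ribosomal proteins. Outside this run, only rps2 (0.63 ± 0.17, adjusted p = 0.00644) and the entry 3-prime-rps12 (0.79 ± 0.30, adjusted p = 0.0359) of the ribosomal group were called higher. The ribosomal genes called lower all lay outside the run, so role and place on the chromosome cannot be told apart. rps3, for a small-subunit protein, had 14.6 and 18.9 TPM in radicle, against 5.42 and 5.46 TPM in plumule (1.45 ± 0.22, adjusted p = 6.06e-05), which was 30.7 and 48.8 read equivalents against 21.9 and 20.5. rpl22, for a large-subunit protein, had 10.7 and 11.5 TPM, against 4.73 and 5.94 TPM (0.94 ± 0.09, adjusted p = 1.67e-06).

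infA had 8.23 and 7.09 TPM in radicle, against 1.78 and 3.94 TPM in plumule (1.22 ± 0.21, adjusted p = 0.000261). rpl14, for a large-subunit protein, had 2.99 and 2.59 TPM, against 1.30 and 0.922 TPM (0.85 ± 0.17, adjusted p = 0.000862). rpl16 had the largest difference, 2.07 ± 0.22, but its listed length is 9 bases and its reads numbered 2.03 and 2.38 in radicle, against 0.83 and 0.85 in plumule. The other 3 genes of the polymerase, rpoB, rpoC1 and rpoC2, lie together elsewhere and did not pass the test, with differences of -0.01, -0.13 and 0.14.

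Not all plastid ribosomal genes followed. rps14, for a small-subunit protein, was listed at 0 in both radicle libraries, against 1.96 and 1.92 TPM in plumule (-1.56 ± 0.21, adjusted p = 2.36e-05), and rps15 had 2.42 and 3.16 TPM in radicle, against 6.35 and 6.21 TPM in plumule (-0.95 ± 0.19, adjusted p = 0.000704). rps15 is present in 2 copies with shared reads, which count as 2 of the 3 ribosomal genes lower in radicle. Without radicle dark replicate 2 the count of ribosomal genes lower in radicle was 5, and the 2 further calls were the copies of rpl23.

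Of 35 named mitochondrial genes tested, 9 were lower (25.7%) and 1 higher (2.86%) in radicle, against 34.6% and 23.8% of all genes, and the median log2 difference was -0.46. The 35 tested mitochondrial identifiers without a name had 3 lower and 1 higher, with a median of 0.10, and they summed to 370 and 284 TPM in radicle, against 186 and 182 TPM in plumule. All mitochondrial genes, named or not, took 0.0561% and 0.0465% of TPM in radicle, against 0.0422% and 0.0420% in plumule. The largest falls with the most reads were in ccmFn, for cytochrome c maturation, with 0.864 and 1.09 TPM in radicle, against 8.27 and 7.08 TPM in plumule (-2.13 ± 0.22, adjusted p = 2e-06), in cox3, for a subunit of cytochrome oxidase, with 3.12 and 3.90 TPM, against 12.2 and 11.4 TPM (-1.51 ± 0.20, adjusted p = 2.3e-05), and in atp1, for a subunit of ATP synthase, with 2.31 and 1.77 TPM, against 6.84 and 7.74 TPM (-1.45 ± 0.17, adjusted p = 6.38e-06). nad4L, for a subunit of complex I, was listed at 0 in both radicle libraries, against 6.47 and 4.43 TPM in plumule (-2.67 ± 0.39, adjusted p = 4.93e-05).

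The named gene higher in radicle was cox2, another cytochrome oxidase subunit, with 2.50 and 5.61 TPM in radicle, against 0.611 and 1.15 TPM in plumule (1.37 ± 0.51, adjusted p = 0.0331), and this call was lost without radicle dark replicate 2 (adjusted p = 0.186) and without plumule dark replicate 1 (adjusted p = 0.0651). The most abundant named mitochondrial genes did not pass the test. rps1, for a ribosomal protein, had 94.1 and 93.8 TPM in radicle, against 113 and 103 TPM in plumule (-0.19 ± 0.11, adjusted p = 0.138), and atp9, for the ring subunit of ATP synthase, had 69.5 and 53.7 TPM, against 47.6 and 51.0 TPM (0.31 ± 0.26, adjusted p = 0.35). Organelle sequences copied into the nuclear genome can share reads with these genes, so their levels are uncertain.

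Genes typical of other tissues were then followed, with lists made on those tissues. A list of 65 genes with at least 100 TPM in the endosperm at 10 DAA and under 1 TPM in 5 vegetative and panicle groups summed to 36.3 and 46.3 TPM in radicle, against 48.6 and 39.4 TPM in plumule, where the endosperm itself had 17186 TPM. These genes entered the test through the endosperm libraries, and only 5 reached 1 TPM in radicle and 3 in plumule. A low share of calls was therefore largely fixed in advance. Of the 65 genes, 5 were called higher (7.69%) and 6 lower (9.23%) in radicle, against 23.8% and 34.6% of all genes. A list of 46 genes with at least 100 TPM in both flag leaf groups and under 1 TPM in embryo and endosperm had 15 higher (32.6%) and 3 lower (6.52%) in radicle. Only 16 of the 46 reached 1 TPM in radicle and 11 in plumule. The sums of the list were 2535 and 2452 TPM in radicle, against 79.2 and 78.5 TPM in plumule, but a single gene held 2273 TPM of the radicle sum. A list of 94 genes with at least 100 TPM in the embryo at 10 DAA and under 1 TPM in flag leaf and straw had 6 higher (6.38%) and 36 lower (38.3%) in radicle (median log2 difference -0.58, against -0.15 over all genes tested). The share lower was close to the 34.6% of all genes, and 38 of the 94 reached 1 TPM in radicle and 64 in plumule. The sum of the list was 173 and 255 TPM in radicle, against 1024 and 980 TPM in plumule, where 5 genes held 722 TPM.

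Ψ fractions were compared next. The authors pooled the replicates of each organ before deposit, so each fraction is a single value, and no test between the organs can be made for a site. Over the 8524 sites the mean fraction was 16.9% in radicle and 15.3% in plumule, the median of the differences was 0.92 points, and the fractions of the organs had a Spearman's rho of 0.48 across sites. A difference of at least 10 points was found higher in radicle at 1693 sites (19.9%, interval 19.03 to 20.72%) and lower at 1062 (12.5%, interval 11.8 to 13.2%). The intervals are 95% Wilson intervals that cover the number of sites only. At 20 points the shares were 8.52% and 6.37%.

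The sites behind this lean were partly chosen by their fraction. The table carries a flag for sites that passed the filter in radicle dark but none for plumule dark. At the 2372 sites flagged in radicle dark the mean was 23.5% in radicle, against 14.8% in plumule, and 797 were at least 10 points higher there, against 63 lower. At the 267 sites flagged in none of the 11 tissues with a flag, the mean was 14.6% in radicle, against 28.9% in plumule. A choice that used neither organ was therefore made, with the 6005 sites flagged in at least 1 of the 8 other tissues. There the means were 16.3% in radicle and 15.8% in plumule, the median difference was 0, and 1015 sites were at least 10 points higher in radicle, against 810 lower.

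The resemblance of the organs went with the level of the transcript. At those sites in transcripts under 10 TPM in 1 or both organs (1919 sites), rho was 0.32, the median size of the difference was 7.77 points, and 22.9% were higher and 21.1% lower in radicle by 10 points. At 100 TPM or more in both organs (1182 sites in 584 genes), rho was 0.83, the median size was 2.47 points, and 6.85% were higher (interval 5.55 to 8.44%) and 3.13% lower (interval 2.28 to 4.28%). In this class the mean was 14.2% in radicle and 12.5% in plumule, with a median difference of 1.11 points. With no choice by flag, 10.4% of 2047 sites in such transcripts were higher and 2.59% lower by 10 points, and 2.93% and 0.83% by 20 points. At 300 TPM or more with the flag (522 sites) the shares were 5.56% higher and 2.68% lower. Fractions at exactly 0 made up 53.8% of radicle and 44.4% of plumule values in the weak transcripts, against 5.75% and 6.26% at 100 TPM or more.

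**Figure D4:**
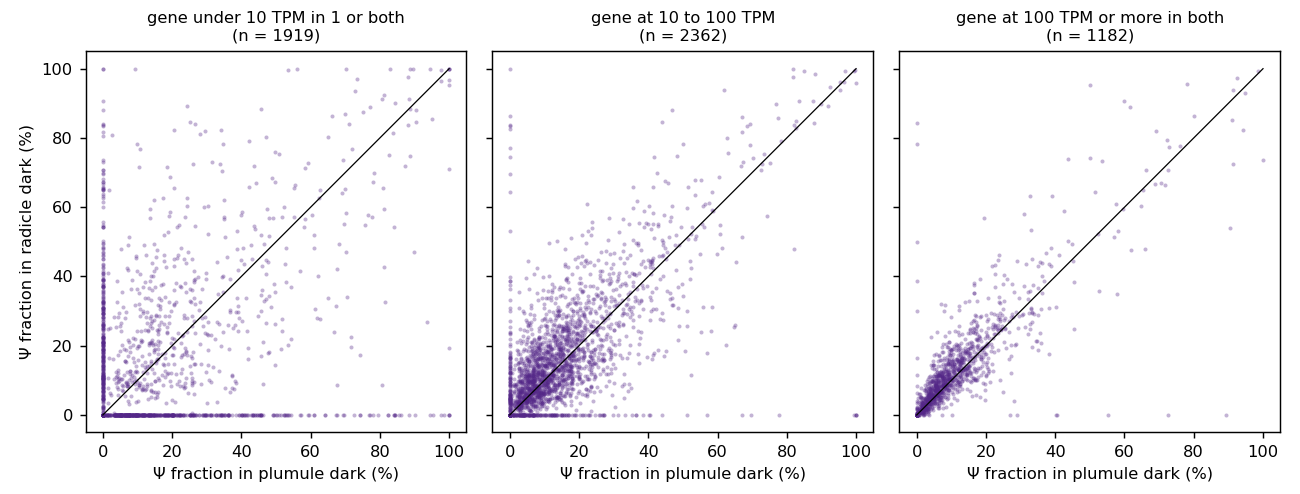
The Ψ fraction in radicle dark (y axis, percent) against plumule dark (x axis, percent) at sites flagged in at least 1 of the 8 other tissues, split by the TPM of the transcript in the 2 organs; the line marks equal fractions. Points at 0 on either axis are frequent in the left panel (n = 1919), and the right panel (n = 1182) lies close to the line.

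**Figure D5:**
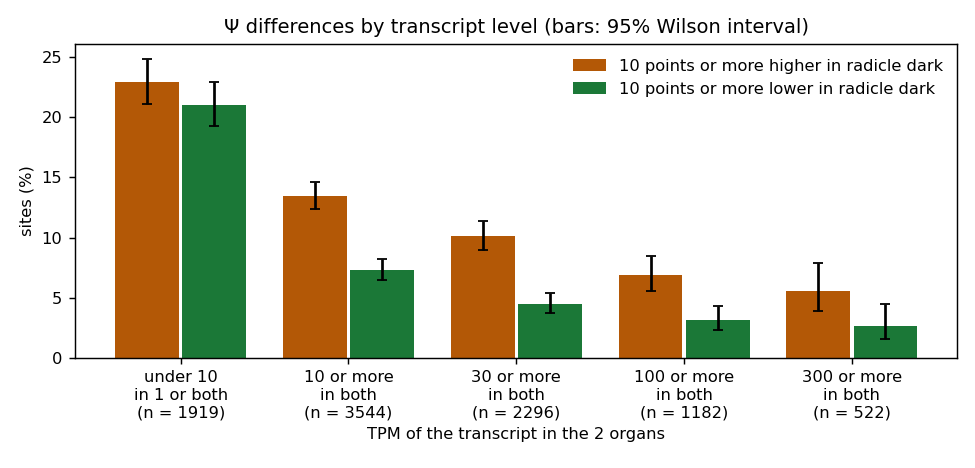
The percentage of sites with a Ψ fraction at least 10 points higher or lower in radicle dark than in plumule dark, by the lowest TPM of the transcript in the 2 organs, with 95% Wilson intervals that cover the number of sites only; the classes from 10 TPM upward are nested. The shares fall from 22.9% and 21.1% under 10 TPM to 5.56% and 2.68% at 300 TPM or more.

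Light-grown organs gave a second pair of pooled fractions. The 2 expression libraries of light-grown radicle differed far beyond sampling noise (chi-square per gene 12.25, against 1.06 in radicle dark). Whether this reaches the pooled fractions is unknown, so agreement or disagreement with the light values is uncertain here and below. Of the differences of at least 10 points with both light fractions, 78.0% had the same sign in light-grown radicle minus plumule at 100 TPM or more (118 sites), against 47.5% in transcripts under 10 TPM (805 sites).

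Sites in abundant transcripts that passed the filter in several tissues were then taken. These were the 206 sites, in 165 genes, at 100 TPM or more in both organs and flagged in at least 5 of the 8 other tissues, a choice made after the values were seen. Their mean was 18.4% in radicle and 16.5% in plumule with a rho of 0.92 between the organs, and 137 were higher and 69 lower in radicle. Here too the flag counts, since 172 of the 206 were flagged in radicle dark and 128 of these were higher there, while of the other 34 sites 9 were higher and 25 lower. Only 10 were higher and 2 lower by at least 10 points, and 10 of these 12 had the same sign in light-grown organs. The 4 sites with the greatest difference above 0 and the 3 with the greatest below 0 are shown with 3 bases on either side, the modified base in capitals, the letters as DNA on the strand of the transcript. The first 4 were higher in radicle and flagged in radicle dark, and the last 3 were lower in radicle and not flagged there.
Os03g0319300, chromosome 3, 11524143, plus strand: ccgTgca
Os04g0376500, chromosome 4, 18402878, minus strand: ggtTcta
Os07g0615200, chromosome 7, 25349227, plus strand: tggTggg
Os06g0199300, chromosome 6, 5045181, minus strand: tgaTcga
Os07g0180900, chromosome 7, 4263994, plus strand: gctTcgt
Os09g0249700, chromosome 9, 3760184, minus strand: ggcTagt
Os02g0626100, chromosome 2, 24973896, minus strand: tatTcct

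The modified base had different neighbours among the sites higher in radicle (GUG at 2 of them, UUC and AUC), and it lay in UUC at 2 of the 3 sites lower in radicle. At the site in Os03g0319300 the fraction was 43.1% in radicle and 21.9% in plumule, in a transcript at 753 TPM in radicle and 766 TPM in plumule. It was 40.7% in light-grown radicle and 25.1% in light-grown plumule, and between 6.30% and 17.3% in the 8 other tissues, so both young organs lay above all of them. At the site in Os04g0376500 the fraction was 43.4% in radicle and 22.7% in plumule, with 11.6 to 37.7% elsewhere. The sites in Os07g0615200 and Os06g0199300 had 25.7% and 24.2% in radicle, against 12.2% and 11.2% in plumule, and the second did not repeat in the light, where radicle had 17.5% and plumule 19.7%.

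At the site in Os07g0180900 the fraction was 7.28% in radicle and 19.7% in plumule, and 5.39% in light-grown radicle and 18.5% in light-grown plumule. The 8 other tissues lay between 7.06% and 23.7%, with a median of 18.6%. The site in Os09g0249700 had 17.1% in radicle and 27.2% in plumule, and 17.4% and 25.95% in the same organs in the light. The site in Os02g0626100 had 31.1% in radicle and 40.1% in plumule while its transcript was at 1202 TPM in radicle and 320 TPM in plumule. In the light it had 32.3% in radicle and 46.6% in plumule. Whether these positions lie in exons or untranslated regions was not analysed here.

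The largest differences of all were of another kind. Under the rule for named sites (1 gene at 10 TPM or more in both organs, flagged in any tissue, 5323 sites), all 8 of the largest rises were at 0 in plumule and all 8 of the largest falls were at 0 in radicle. The depth behind each of these pooled values is unknown. Of the 3 examples chosen after the values were seen, a rise was found in Os07g0634400, at 94.9% in radicle with a flag there and 0 in plumule, and 80.6% and 0 in the same organs in the light. Its transcript was at 682 TPM in radicle and 28.7 TPM in plumule. A fall was found in Os07g0683900, at 0 in radicle and 89.2% in plumule, and 0 and 99.2% in the light, in a transcript at 346 TPM in radicle and 284 TPM in plumule. In contrast, Os09g0535000 had 0 in radicle and 100% in plumule but 100% in both organs in the light. The 3 sequences are given in the same way.
Os07g0634400, chromosome 7, 26328499, minus strand: ttaTagg
Os07g0683900, chromosome 7, 29004674, plus strand: taaTact
Os09g0535000, chromosome 9, 21036067, minus strand: cctTgca

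Of 259 sites that differed by 50 points or more, 228 had 1 organ at 0. The modified base lay between G and A (GUA) at 40 of the 259 (15.4%), against 5.91% of all sites with both fractions.

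Some sites were modified almost fully in both organs. A site in Os09g0568000 (chromosome 9, 22685253, plus strand) had 99.3% in radicle and 96.8% in plumule and was flagged in all 8 other tissues, where it lay between 86.3% and 96.1%. A noncoding gene on chromosome 2 listed as ENSRNA049471102 had a site at 28720963 with 99.7% in radicle and 97.8% in plumule. Another 30 bases on (28720993) had 91.3% and 88.4%. The gene was listed at only 0.473 TPM in radicle and 7.12 TPM in plumule. These sites were chosen among those flagged in radicle dark. The T arm of tRNAs holds a conserved Ψ, and its sequence surrounded the modified base at 70 sites, 41 of them outside the listed genes. These had 65.0% ± 31.7 in radicle and 70.5% ± 29.1 in plumule (SD over sites), with 17 higher and 15 lower in radicle by 10 points. The similar form ggtTcaa, at 49 sites with 22 outside the listed genes, had 50.2% ± 35.9 in radicle and 48.1% ± 37.2 in plumule. There 15 sites were higher and 10 lower by 10 points, and the median difference was 0 for each form. The 4 sequences follow, with the modified base in capitals.
Os09g0568000: ggtTcca
ENSRNA049471102, first site: tcaTcag
ENSRNA049471102, second site: cttTgta
T arm form: ggtTcga

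The differences varied with the bases on either side of the site. Over all sites the largest mean differences above 0 were at CUG (21.0% in radicle, 16.8% in plumule, 307 sites), CUC (21.3% and 17.8%, 1211 sites), GUC (16.1% and 12.6%, 831 sites) and GUG (12.9% and 10.1%, 1181 sites). The largest below 0 was at UUU (4.29% in radicle, 7.62% in plumule, 154 sites), where the mean difference was 1.04 points above 0 in transcripts at 100 TPM or more. UUC, the motif with the highest fractions, had 30.1% in radicle and 29.7% in plumule (861 sites). In transcripts at 100 TPM or more and at sites flagged in 1 of the 8 other tissues, CUG had 20.9% in radicle and 16.8% in plumule (43 sites), CUC 18.3% and 15.9% (171 sites), GUC 14.6% and 11.6% (116 sites) and GUG 12.6% and 9.58% (143 sites). UUC had 20.6% in radicle and 21.2% in plumule there (104 sites), with 10 sites higher and 10 lower by 10 points. Of the GUC sites in this class 4 were higher (3.45%) and 0 lower by 10 points, and of the CUG sites 6 were higher (14.0%) and 0 lower. Over all 1182 sites of this class 6.85% were higher and 3.13% lower, so these counts are too small to set the motifs apart. UUA had 20.4% in radicle and 16.1% in plumule there (21 sites), with 5 higher and 0 lower.

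The wider sequence was also read, for forms of 7 bases found at 40 sites or more. The forms were ranked over all sites, some of which were chosen by their radicle fraction. The 2 with the largest difference in mean above 0 were agcTcgg, with 24.9% in radicle and 16.2% in plumule over 55 sites, and cgcTcgg, with 31.7% and 26.2% over 143 sites. For comparison cgaTcgg, the commonest form with 210 sites, had 11.4% in radicle and 11.5% in plumule. In transcripts at 100 TPM or more the means were 19.9% in radicle and 14.9% in plumule for agcTcgg (19 sites), 24.4% and 22.2% for cgcTcgg (19 sites), and 11.3% and 9.89% for cgaTcgg (35 sites). There tgcTcgg had a larger difference than these forms, with 23.3% in radicle and 17.5% in plumule (25 sites).

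Ψ and expression were set side by side last. At the sites flagged in 1 of the 8 other tissues, the difference in fraction and the log2 difference in expression had a rho of 0.11 (5461 sites), and 0.00 when only transcripts at 10 TPM or more in both organs were kept (rho = 0.000941, 3544 sites). Sites in genes higher in radicle had 16.2% in radicle and 13.8% in plumule (1665 sites), and sites in genes lower in radicle had 14.9% and 14.4% (2537 sites). Zeros went with the lower transcript level. In the genes higher in radicle 12.9% of radicle and 26.4% of plumule fractions were 0, and in the genes lower in radicle 32.6% of radicle and 16.2% of plumule fractions were 0. At 100 TPM or more in both organs the fractions were 14.3% in radicle and 12.3% in plumule for genes higher in radicle (369 sites), 13.7% and 12.2% for genes lower in radicle (580 sites), and 15.3% and 13.5% for genes not called (233 sites).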

How the data were processed

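Per the labels and the methods of the study, poly(A)+ RNA was profiled by BID-seq and mapped to IRGSP-1.0. The deposited expression table holds TPM made by the authors, with 2 columns a group whose names leave out the bisulfite step, and gene length and position. The aligner and counting of this table are not given in the sources used here. The deposited Ψ fraction (0 to 1, printed as percent) was pooled by the authors over replicates, calibrated from gap ratios and flagged by a p-value filter, so its depth is unknown.

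Genes at 1 TPM or more in 2 of 20 libraries (10 groups, light-grown young organs left out) were tested with limma 3.58.1 (R 4.3.3) on log2(TPM + 1) with a variance trend and Benjamini-Hochberg adjustment. The log2 differences of low genes depend on the pseudocount, and fold changes of weak genes are understated. Replicates were compared by chi-square of read equivalents (56.0% to 61.9% of values in the 4 libraries were whole, within 0.05). A form of the test with every library as its own sample was tried on simulated data with an assumed spread between libraries. There more of the calls than the threshold allows were unchanged genes. Site summaries used Python 3.11.15, pandas 2.3.3 and SciPy 1.17.1. Each site took the gene spanning it, where only 1 on that strand did.

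The rule for named genes asked for an informative name, which no nuclear gene had (1 identifier matched the RefSeq symbols). The 2 largest rises and falls are therefore given by identifier, and the planned lists by name were applied only to organelle genes. Named sites were the 8 largest rises and falls and, among sites flagged in radicle dark, the 5 highest means. Members and lists were chosen with earlier results of these data known. Results of 2 plastid genes are not reported here. The alternatives varied the pseudocount, filter, scaling, groups, replicates and sites.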

Additional observations from a re-analysis of the deposited data

How the results depend on the processing

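Counts of called genes changed by less than 1.5 times under all 14 alternatives, from 14497 (filter of 10 TPM) to 19313 (every library its own sample), and leaving out 1 library gave 15671 to 17565, with 6338 to 7176 higher and 9333 to 10439 lower. The share of calls higher in radicle was 51.6% after median centring, against 40.8%. The replicate number as a block gave 19250 calls, 7806 higher and 11444 lower, against 19313 without the block. Same-numbered radicle and plumule libraries did not deviate together (r = -0.00444). The plumule libraries differed by no more than sampling noise, so this value cannot show whether same-numbered libraries were paired. Of 35 named genes called, the number of calls lost was 8 with a pseudocount of 5, 7 with all 12 groups, 6 with median centring, 6 without radicle dark replicate 2, 5 without plumule dark replicate 2 and 4 with a pseudocount of 0.1. Photosystem II genes lower in radicle numbered 5 with all 12 groups, 5 with median centring and 4 with a pseudocount of 5, and 6 to 8 without 1 library, and with only the 4 dark libraries 5 of the 5 tested were lower. Named plastid genes lower in radicle numbered 7 with a pseudocount of 5, and those of the ribosome 3 to 5 without 1 library. Mitochondrial genes higher in radicle numbered 0 with all 12 groups, no filter or a pseudocount of 0.1, and 0 to 1 without 1 library. With the filter of 10 TPM only 4 mitochondrial genes were tested, of which 0 were higher and 2 lower. Apart from these cases of fewer genes tested, the cause was not tested.

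The share of sites at least 10 points higher in radicle, 19.9%, was 16.9% at sites flagged in 1 of the 8 other tissues, 33.6% at sites flagged in radicle dark, 17.3% in genes at 10 TPM or more in both organs, 10.4% at 100 TPM or more (chosen after seeing the data), and 8.52% at 20 points. The share lower, 12.5%, was 13.5%, 2.66%, 6.77%, 2.59% and 6.37% in the same settings, and 7.97% at sites above 0 and under 100% in both. The rho of Ψ and expression differences, 0.15 over all sites in tested genes, was -0.0864 at sites flagged in radicle dark, 0.0349 at 10 TPM or more, 0.0432 at 100 TPM or more and -0.133 at sites above 0 and under 100%. Of the 16 motifs, mean differences turned sign for AUA (-1.10 points), CUA (-1.10), GUU (-0.40), UUC (-0.65) and UUG (-0.39) at sites flagged in 1 of the 8 other tissues, and for AUA (-3.38), AUU (0.11), GUA (2.85), UUA (5.42) and UUU (1.04) at 100 TPM or more. Pooled fractions and few organelle reads limit what can be said of single sites and genes.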
